A study of Drosophila melanogaster with 6 samples.

Results

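The genes described are *fit*, *Yp1*, *Yp2*, *Yp3*, *to* and *Lsp2*, 6 of the 17489 genes counted, which encode secreted proteins of the fat body of the head whose levels are known to depend on sex or feeding. They were chosen by name after their sense-strand counts on both diets had been seen, and the comparison made is the one in which they were seen. Their differences between diets are therefore given as a description, and no test of them is used as support. Heads of male *Drosophila melanogaster* gave 6 RNA-seq libraries, 3 from flies on a sugar diet (SD, 30% sucrose) and 3 from flies on a control diet (CD, 5% sucrose). All flies had the genotype Gr5a:Pclc429>UAS-Rpl3-3XFLAG, so both groups carried the c429 mutation of *Pcl*, a partner of the Polycomb Repressive Complex. In both groups a FLAG-tagged ribosomal protein was placed in *Gr5a* sensory neurons, the sugar-sensing taste cells, by the *Gr5a* driver. Males were collected 2 days after eclosion and kept on their diet for 7 days, from day 5 to day 12, and each replicate pooled 300 heads. RNA bound to the tagged ribosomes was recovered with anti-FLAG beads, but whether a given library came from this fraction or from the whole lysate is not said in the labels, and no input library was analysed here.

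The fat body of insects combines the roles of liver and adipose tissue, and part of it lies in the head around the brain. It secretes yolk proteins in females, storage proteins called hexamerins, lipoproteins and hormones into the hemolymph. Sex-specific forms of the transcription factor Doublesex, made at the end of a splicing cascade that starts with *Sxl*, switch the yolk protein genes on in the fat body of females and keep them off in that of males. Products of the head fat body also respond to food: Fit is released after a protein meal and limits feeding, and Takeout links feeding state to the circadian clock and to male courtship.

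Sense counts per library ranged from 12617127 to 24076315, and 12740 to 14739 genes had at least 1 count. Taste cell markers were near the detection floor of 3 counts: *Gr5a*, *Gr61a*, *Gr64a*, *Gr64b*, *Gr64c*, *Gr64d*, *Gr64e* and *Gr64f* together had 7.44 to 41.6 normalized counts per SD library and 18.0 to 43.3 per CD library, and 4 of the 8 were at 0 in all 6. Fat body markers ranged widely. *apolpp*, the precursor of the main lipoprotein of the hemolymph, had 125870 to 197191 normalized counts. *Fst*, the scarcest of the 13 matched markers, had 0 to 28.1, and each of the others had at least 129 per library. The neuronal marker *nSyb* had 23502 to 30554. The labelled cell type was thus barely seen through its own receptors, while most markers of fat body and those of neurons were well above the floor. Of 4 neuron-wide markers DESeq2 and edgeR each called 0 between diets, with 1 at an unadjusted p under 0.05, and of 4 glia markers 1, *alrm*, was lower on SD (log2 fold change -0.41 ± 0.14, SE), a call lost with total-count scaling and without CD replicate 1, CD replicate 2 or SD replicate 3. In bulk RNA, fewer cells of a type and less RNA per cell cannot be told apart. Normalized counts are counts divided by the DESeq2 size factor of the library. Fold changes are SD over CD on a log2 scale, and a gene was called when its DESeq2 Wald test gave a Benjamini-Hochberg adjusted p (q) under 0.1.

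**Figure D1:**
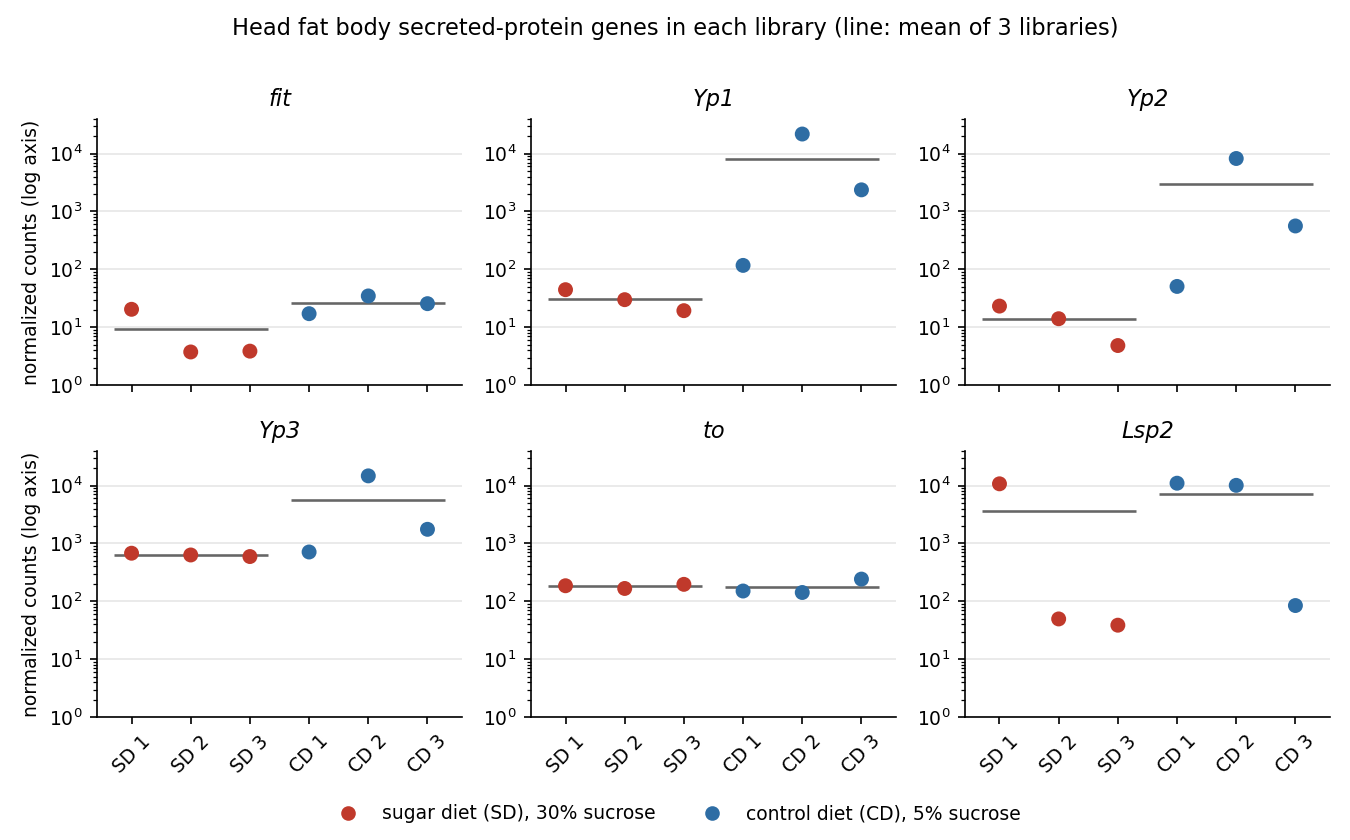
Normalized counts (vertical log axis) of the 6 genes in each library, with SD replicates 1 to 3 in red at the left of each panel, CD replicates 1 to 3 in blue at the right, and a line at the mean of each diet. All 3 yolk protein genes are highest in CD replicate 2, *to* is at a similar level in all 6 libraries, and *Lsp2* is high in SD replicate 1, CD replicate 1 and CD replicate 2 and low in the other 3.

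*fit* (FBgn0038914) encodes a small secreted protein that is made mostly in females and acts as a satiety signal. The gene is a single exon of 531 bases on dm6 chromosome 3R, from 21883924 to 21884454 on the minus strand. It had 20.5, 3.75 and 3.87 normalized counts in SD replicates 1 to 3, against 17.2, 34.8 and 25.6 in CD replicates 1 to 3. Only SD replicates 2 and 3 were low, and SD replicate 1 lay above CD replicate 1, so the diets overlapped. These were 22, 4 and 4 reads on SD and 22, 23 and 26 reads on CD, and the exact 95% Poisson interval of 4 reads ran from 1.09 to 10.2, below that of 22 reads, 13.8 to 33.3. Such intervals cover counting error only. The mean was 9.36 ± 9.61 on SD and 25.9 ± 8.80 on CD (s.d., n = 3 each), and the log2 fold change was -1.45 ± 0.79 (SE). Without SD replicate 1 it was -2.74 ± 0.83.

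*Yp1* (FBgn0004045) encodes a yolk protein, a lipase-like nutrient that is secreted by the female fat body and the follicle cells of the ovary and taken up by the oocyte. It lies on chromosome X from 10053811 to 10055498 on the plus strand, with 1611 exonic bases in 2 exons. Its level was 44.6, 30.0 and 19.4 normalized counts in SD replicates 1 to 3, against 117, 21747 and 2363 in CD replicates 1 to 3. Every CD library lay above every SD library, and the lowest CD value was 2.63 times the highest SD value. The CD libraries were far from alike, since replicate 2 alone held 89.8% of the CD sum and was 186 times replicate 1. The mean was 31.3 ± 12.7 on SD and 8076 ± 11893 on CD (s.d., n = 3 each). The log2 fold change was -8.01 ± 1.55 (SE), and it was -5.31 ± 1.33 without CD replicate 2.

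*Yp2* (FBgn0005391) is the neighbor of *Yp1*, transcribed in the opposite direction from 10052636 down to 10050951 on chromosome X, and encodes a protein of the same family. It was the scarcest of the yolk protein genes, with 23.2, 14.1 and 4.84 normalized counts in SD replicates 1 to 3, against 50.8, 8219 and 562 in CD replicates 1 to 3. The order of the libraries was that of *Yp1*, and again no CD library fell into the SD range. The lowest CD value was 2.18 times the highest SD value. The lowest value, in SD replicate 3, rested on 5 reads, with an exact 95% Poisson interval of 1.62 to 11.7 reads. The mean was 14.0 ± 9.20 on SD and 2944 ± 4575 on CD (s.d., n = 3 each), with CD replicate 2 holding 93.1% of the CD sum. The log2 fold change was -7.71 ± 1.64 (SE), and it was -4.45 ± 1.30 without CD replicate 2.

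*Yp3* (FBgn0004047) encodes the remaining yolk protein and lies apart from the other two on chromosome X, from 13759546 to 13761547 on the plus strand, with 1868 exonic bases in 3 exons. It had 678, 632 and 594 normalized counts in SD replicates 1 to 3, against 712, 14679 and 1753 in CD replicates 1 to 3. The SD libraries were within 1.14-fold of each other. CD replicate 1 was only 1.05 times the highest SD library, so the separation of the diets was narrow for this gene. CD replicate 2 again held most of the CD sum, 85.6%. The mean was 634 ± 42.1 on SD and 5715 ± 7781 on CD (s.d., n = 3 each). The log2 fold change was -3.17 ± 1.14 (SE), and it was -0.96 ± 0.33 without CD replicate 2.

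Per 1000 exonic bases, *Yp3* led the yolk protein genes on SD with a mean normalized count of 340, before *Yp1* with 19.4 and *Yp2* with 8.68. On CD *Yp1* led with 5013, followed by *Yp3* with 3059 and *Yp2* with 1819. Library by library the order on SD held throughout, with *Yp3* above *Yp1* and *Yp1* above *Yp2*, the last pair at 27.7 against 14.4, 18.6 against 8.69 and 12.0 against 2.99. On CD both *Yp1* and *Yp3* were above *Yp2* in every library, with *Yp1* at 72.7, 13499 and 1467, *Yp3* at 381, 7858 and 938 and *Yp2* at 31.4, 5079.6 and 347. *Yp1* and *Yp3* changed places between CD libraries, with *Yp3* above *Yp1* in CD replicate 1 and below it in CD replicates 2 and 3. Over all 6 genes the order per 1000 bases on SD was *Lsp2* (1452), *Yp3*, *to* (146), *Yp1*, *fit* (17.6) and *Yp2*. On CD it was *Yp1*, *Yp3*, *Lsp2* (2842), *Yp2*, *to* (142) and *fit* (48.7). In CD replicate 1, however, *to* (120) was above *Yp1* and *Yp2*, and *fit* (32.4) was above *Yp2*. The place of *Lsp2* rests on its few high libraries, and *fit* changed places with both *Yp1* and *Yp2* between SD libraries, at 38.5, 7.06 and 7.30 in SD replicates 1 to 3.

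The 3 yolk protein genes ranked the 6 libraries in the same order, CD replicate 2, CD replicate 3, CD replicate 1, SD replicate 1, SD replicate 2 and SD replicate 3. Spearman's rho was therefore 1 for each pair, and Pearson's r of log2(normalized count + 1) was 0.99 between *Yp1* and *Yp2*, 0.94 between *Yp1* and *Yp3* and 0.95 between *Yp2* and *Yp3*. These are descriptions over 6 libraries that share the diet difference. Together the yolk protein genes took 0.00419%, 0.00416% and 0.00382% of the sense counts in SD replicates 1 to 3. In CD replicates 1 to 3 they took 0.00468%, 0.234% and 0.0270%.

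The makeup of the yolk protein counts varied along with their total. *Yp3* made up 90.9%, 93.5% and 96.1% of them in SD replicates 1 to 3, against 80.9%, 32.9% and 37.5% in CD replicates 1 to 3. *Yp1* made up 5.99%, 4.44% and 3.13% on SD, against 13.3%, 48.7% and 50.5% on CD. CD replicate 1 was thus close to the SD libraries in makeup, and CD replicates 2 and 3, with very different totals of 29523 and 4753 counts, were close to each other. The ratio of *Yp1* to *Yp2* counts varied far less, with 1.92, 2.13 and 4 in SD replicates 1 to 3 and 2.31, 2.65 and 4.20 in CD replicates 1 to 3. For this neighboring pair the diets overlapped.

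**Figure D2:**
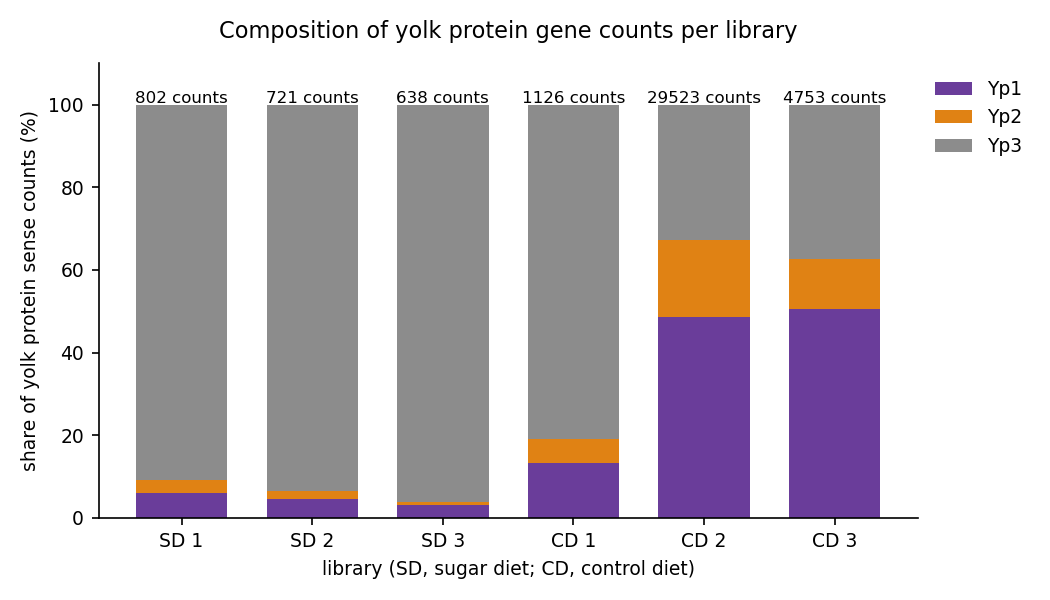
Share of the summed *Yp1*, *Yp2* and *Yp3* sense counts that each gene took in each library (vertical axis, percent), with SD replicates 1 to 3 left of CD replicates 1 to 3 and the summed count above each bar. *Yp3* takes over 80% of the bar in the 3 SD libraries and CD replicate 1, and under 40% in CD replicates 2 and 3.

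*to* (FBgn0039298), known as takeout, encodes a secreted protein of the juvenile hormone binding protein family that is enriched in the head fat body of males. It lies on chromosome 3R from 25240180 to 25241668 on the plus strand, with 1253 exonic bases in 4 exons. It had 186, 167 and 197 normalized counts in SD replicates 1 to 3, against 151, 142 and 242 in CD replicates 1 to 3. The SD libraries lay inside the CD range, and the whole spread over the 6 libraries was 1.70-fold. The mean was 183 ± 15.1 on SD and 178 ± 55.4 on CD (s.d., n = 3 each). The log2 fold change was 0.03 ± 0.26 (SE), and its sign depended on the processing, from -0.10 to 0.31 over all the fits that were run.

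*Lsp2* (FBgn0002565) encodes a hexamerin, a storage protein that fat body secretes into the hemolymph and that the head fat body also makes in adults. It is a single exon of 2477 bases on chromosome 3L, from 12129393 to 12131869 on the plus strand. It had 10702, 49.7 and 38.7 normalized counts in SD replicates 1 to 3, against 10962, 10069.7 and 84.6 in CD replicates 1 to 3. The 3 high values were close to each other, no library lay between 84.6 and 10069.7, and both diets had libraries on each side of that gap. The mean was 3597 ± 6153 on SD and 7039 ± 6039 on CD (s.d., n = 3 each). The log2 fold change was -0.97 ± 2.22 (SE), and DESeq2 set its p aside because single counts were outlying. Without SD replicate 1 the value was -7.31 ± 1.74.

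Over the 6 genes, 3 were called, *Yp1*, *Yp2* and *Yp3*, all lower on SD, 0 were called higher and *Lsp2* had no q. The call of *Yp3* was lost with the replicate block and when any SD library was left out. Over all 14254 genes with a q, 14.5% were called, 0.54% lower on SD and 14% higher. The median log2 fold change was -2.31 over the 6 genes, against 0.02 over all genes with a q. The libraries of the diets did not overlap for 3 of the 6 genes, again the yolk protein genes, while this held for 26.6% of all genes with a q and, lower on SD, for 6.67%. As the genes were chosen with this comparison known, nothing is read from these shares. With edgeR 13.9% of the 11471 genes tested were called.

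Female-biased and male-biased members were then set against each other in each library, as the mean log2(normalized count + 1) of *fit*, *Yp1*, *Yp2* and *Yp3* minus that of *to*. This difference was -1.56, -2.29 and -3.03 in SD replicates 1 to 3, against -0.69, 4.44 and 1.04 in CD replicates 1 to 3. The 4-gene mean was thus below *to* in every SD library and in CD replicate 1, and above it in CD replicates 2 and 3. The 4 genes were not alike in this: *Yp3* alone was above *to* in every library, with 9.41, 9.31 and 9.22 on SD and 9.48, 13.8 and 10.8 on CD, and *fit* was below it in every library, with at most 5.16. The mean was -2.29 ± 0.73 on SD and 1.60 ± 2.61 on CD (s.d., n = 3 each). The difference between the diet means was -3.89, and -2.47 without CD replicate 2. It lay mostly on the female-biased side, as *to* alone stood at 7.55, 7.39 and 7.63 on SD and 7.25, 7.16 and 7.93 on CD on the same scale. The female-biased mean was 5.99, 5.11 and 4.60 on SD, against 6.56, 11.6 and 8.96 on CD.

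**Figure D3:**
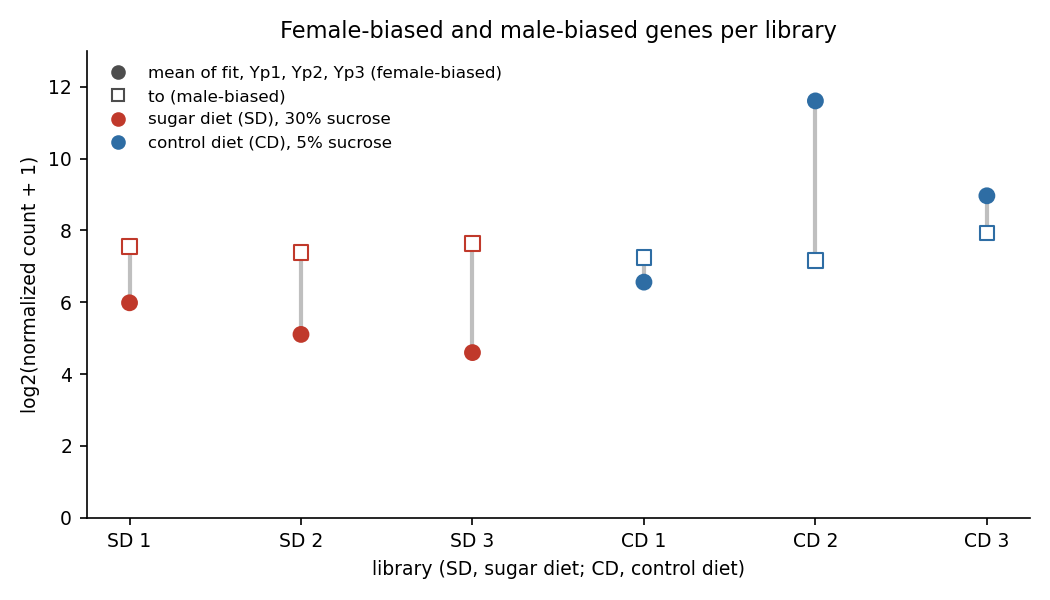
Mean log2(normalized count + 1) of *fit*, *Yp1*, *Yp2* and *Yp3* (filled circles) and the same measure for *to* (open squares) in each library, joined by a gray bar, with SD replicates 1 to 3 in red at the left and CD replicates 1 to 3 in blue at the right. The squares stay between 7.16 and 7.93, while the circles lie below them in the SD libraries and CD replicate 1 and above them in CD replicates 2 and 3.

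Of the 4 genes known to be male-biased in head fat body, *to* included, DESeq2 and edgeR each called 0, 0 had an unadjusted p under 0.05, and the median log2 fold change was -0.07, against 0.02 over all genes with a q. Without SD replicate 1 DESeq2 called 1, *Obp99b*. The most abundant was *sxe2*, a lipase-like gene, with 3171, 2307 and 2355 normalized counts in SD replicates 1 to 3, against 3090, 2312 and 2658 in CD replicates 1 to 3. The diets overlapped, and its log2 fold change was -0.04 ± 0.16 (SE). *Cyp4d21*, a male-biased cytochrome P450 named after its values were seen, ranged from 1371 to 1802 on SD and from 1486 to 1735 on CD. *Obp99b*, an odorant binding protein of the fat body likewise named afterwards, had 3558, 1132 and 1056 on SD, against 3677, 2831 and 1664 on CD.

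Genes of the sex determination cascade were measured as well, with fat body and hormone factors linked to the yolk protein genes. Of 15 tested, DESeq2 and edgeR each called 0, 1 had an unadjusted p under 0.05, and the median log2 fold change was -0.06. They were the splicing regulators *Sxl*, *tra* and *tra2*, *dsx*, its female partner *ix*, *her*, *fru*, the fat body GATA factor *srp*, *Aef1* and *slbo*, which act on yolk protein enhancers, the ecdysone receptor genes *EcR* and *usp*, and the juvenile hormone response genes *Met*, *gce* and *Kr-h1*. *Sxl* was the most abundant, with 7604, 7529 and 6731 normalized counts in SD replicates 1 to 3, against 7889, 7494 and 7864 in CD replicates 1 to 3, and a log2 fold change of -0.09 ± 0.09 (SE). *dsx*, which binds the yolk protein enhancers, had 1412, 1222 and 1005 on SD, against 1215, 1263 and 1191 on CD. For *dsx* the SD libraries spanned the CD range, and the log2 fold change was -0.01 ± 0.14 (SE), without distinction between its male and female transcripts in these gene counts.

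The list of hexamerins with the fat body proteins *Fbp1*, a hexamerin receptor, and *Fbp2* held 5 tested genes besides *Lsp2*, with a median log2 fold change of -0.88. DESeq2 called 0 of the 5, 0 had an unadjusted p under 0.05, and edgeR called 0 of the 2 that passed its filter. *Lsp1beta*, the most abundant, had 10855, 3625 and 2918 normalized counts in SD replicates 1 to 3, against 12134, 14565 and 5317 in CD replicates 1 to 3. The same SD replicate 1 stood apart from its group as for *Lsp2*, and without it the log2 fold change of *Lsp1beta* was -1.71 and called, against -0.88 ± 0.70 (SE) with it. *Lsp1alpha*, named after its values were seen, had 90.2, 0.94 and 4.84 on SD, against 89.1, 72.6 and 4.92 on CD. *Lsp2*, *Lsp1beta* and *Lsp1alpha* thus had the same 3 libraries at the top, and *Lsp1alpha* too was called without SD replicate 1.

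Genes whose profile was most like that of each member were sought by Pearson's r of log2(normalized count + 1) over the 6 libraries, among the 11486 genes whose normalized counts averaged 10 or more. For *Lsp2* they were *Ance-5* (r = 0.999), *Tsf1* (0.998) and *ome* (0.998), and 45 genes had r above 0.98. *Tsf1*, the iron carrier transferrin of the hemolymph, had 26706, 9956 and 9837 normalized counts in SD replicates 1 to 3, against 26083, 24960 and 10374 in CD replicates 1 to 3. Its highest libraries were those of *Lsp2*, but its range was far narrower than the 283-fold range of *Lsp2*. *CCHa2*, a fat body hormone named after its values were seen, had 1809, 832 and 818 on SD, against 1815, 1583 and 870.1 on CD. Of the 23 other genes of the hexamerin, fat body marker and fat body signal lists with a mean of 10 or more, 16 had r above 0 with *Lsp2* and 7 below 0. The lowest was *daw*, a ligand of the TGF-beta family also named afterwards (r = -0.96), with 1575, 2686 and 2695 normalized counts in SD replicates 1 to 3, against 1665, 1952 and 2548 in CD replicates 1 to 3. Its lowest library on each diet was thus a library in which *Lsp2* was high.

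**Figure D4:**
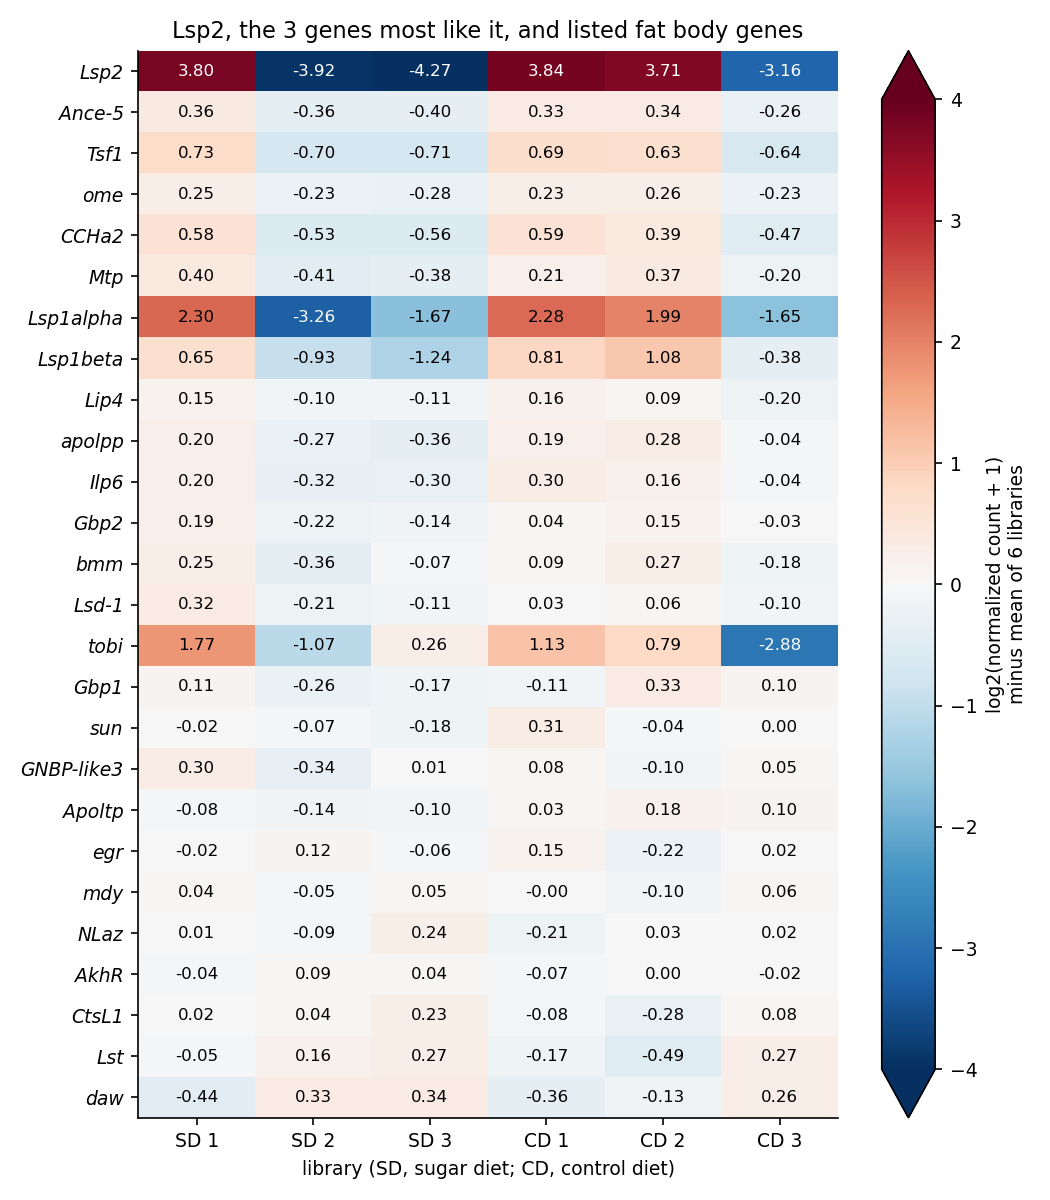
Deviation of log2(normalized count + 1) from the mean of the 6 libraries for *Lsp2*, the 3 genes most like it and then the listed fat body genes by falling r with *Lsp2* (rows), in SD replicates 1 to 3 and then CD replicates 1 to 3 (columns), with red above and blue below the mean. *Lsp2* runs from -4.27 to 3.84, the rows next to it have the same 3 libraries above the mean, and the pattern fades down the rows to *daw*, where those 3 libraries are below the mean.

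For *Yp1* the likest gene was *asRNA:CR45601* (r = 0.995), an antisense RNA that shares 875 bases with the exons of *Yp1*, 54.3% of them. It had 1, 0 and 0 reads in SD replicates 1 to 3, against 2, 34 and 11 reads in CD replicates 1 to 3. Because it overlaps *Yp1* on the opposite strand, its few reads cannot be told apart from wrong-strand reads of *Yp1*, which were 0.433% of the stranded reads of that gene. *Cad86C*, a cadherin (r = 0.987), and *CrebB*, a transcription factor (r = 0.984), followed, and 4 genes had r above 0.98. *Cad86C* ran only from 504 to 593 and *CrebB* from 2470 to 2813 normalized counts, against a 1123-fold range of *Yp1*. Neither was called. For *Yp2* the list was *asRNA:CR45601* (0.993), *PGAP1* (0.982) and *Cad86C* (0.981). *PGAP1* was not called and ran only from 328 to 504 normalized counts. For *Yp3* it was FBgn0086901, for which no symbol was matched (0.986), the translation factor gene *eIF4E6* (0.984) and *Ctu2* (0.982). None of these was called. Their ranges were far narrower than the 24.7-fold range of *Yp3*, the widest being that of *eIF4E6*, from 10.7 to 30.2 normalized counts.

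The profile of *fit* was most like those of *Mur2B* (0.991), *CG9664* (0.991) and *mid* (0.990), with 7 genes above 0.98. These varied little: *mid*, a T-box factor gene, had 291, 212 and 205 normalized counts in SD replicates 1 to 3, against 289.8, 312 and 298 in CD replicates 1 to 3. For *to* the likest genes were *CG33635* (0.975), *mRpL40* (0.974) and *Cyp4e3* (0.971), and 0 genes passed 0.98. None of the genes named for *fit* and *to* was called between diets. Correlations over 6 libraries that share depth and diet are descriptions of profile only.

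The members themselves fell apart by profile. *fit* had r of 0.79 with *Yp1*, 0.81 with *Yp2* and 0.66 with *Yp3*, and 0.71 with *Lsp2*. *to* had r between -0.61 and -0.09 with the other 5. *Lsp2* had r of 0.33 to 0.40 with the yolk protein genes: it was high in CD replicate 1, the lowest CD library of all 3 yolk protein genes, and low in CD replicate 3, where they were higher.

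The family of *to*, genes with the juvenile hormone binding protein domain, was read from the same fit. Of 23 tested, *to* included, 6 were called higher on SD and 0 lower, a share of 26.1% beside 14% of all genes with a q, and the family median was 0.03. *CG8997* had 266, 106 and 236 normalized counts in SD replicates 1 to 3, against 26.6, 1.51 and 0.98 in CD replicates 1 to 3, and its log2 fold change was 4.36 ± 1.31 (SE), with a Benjamini-Hochberg q of 0.00827 by DESeq2. *CG7916* had 96.7, 77.8 and 109 on SD, against 14.1, 3.02 and 10.8 on CD, and its log2 fold change was 3.25 ± 0.47 (SE), with a Benjamini-Hochberg q of 2.74e-10 by DESeq2. *CG7953* had 160, 56.2 and 128 on SD, against 13.3, 16.6 and 1.97 on CD, and its log2 fold change was 3.46 ± 0.58 (SE), with a Benjamini-Hochberg q of 8.11e-08 by DESeq2. For each of these 3 genes every SD library lay above every CD library, and *CG8997* lost its call without SD replicate 3.

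The other called relatives, *Jhbp6*, *Jhbp5* and *Jhbp12*, had log2 fold changes of 2.40, 1.55 and 1.33. *Jhbp6* had 18.6, 22.5 and 51.3 normalized counts in SD replicates 1 to 3, against 3.12, 4.54 and 9.84 in CD replicates 1 to 3, and lost its call without SD replicate 3 or CD replicate 1. *Jhbp5* had 164, 154 and 314 on SD, against 65.6, 81.7 and 68.9 on CD. *Jhbp12* had 125, 141 and 289 on SD, against 83.6, 62.0 and 73.8 on CD, and its log2 fold change was 0.85 without SD replicate 3. All 3 were highest in SD replicate 3, as were the sums of the accessory gland genes, 2516, 2532 and 7130 on SD against 98.4, 34.8 and 13.8 on CD, and the part of such tissue in these values was not tested. *Jhbp13*, the most abundant relative, had 3342, 1918 and 2354 normalized counts in SD replicates 1 to 3, against 2929, 2418 and 2782 in CD replicates 1 to 3. Its diets overlapped as those of *to* did, and its log2 fold change was -0.09 ± 0.18 (SE), or -0.34 and called without SD replicate 1.

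Other markers and signals of fat body were read from the same fit. Of 13 tested markers, 1 was called higher and 1 lower, with a median log2 fold change of -0.00. Over all genes with a q, 14% were called higher and 0.54% lower. Of 10 fat body signals DESeq2 called 0, edgeR called 0 of the 9 that passed its filter, 0 had an unadjusted p under 0.05, and the median was -0.04. Without SD replicate 1, 3 markers and 2 signals were called, all lower on SD. *apolpp* had a log2 fold change of -0.28 ± 0.15 (SE) and was not called, except without SD replicate 1, where the value was -0.47. The called markers were *Apoltp*, a lipid transfer lipoprotein gene, at -0.21 ± 0.08 (SE; Benjamini-Hochberg q of 0.0659 by DESeq2), and *Fst*, a gene of the cold response, at 3.10 ± 1.20 (SE; q of 0.073). The call of *Apoltp* was lost with edgeR, the replicate block or total-count scaling, and without CD replicate 2, SD replicate 2 or SD replicate 3. *Fst* did not pass the edgeR filter on low counts, and its call was lost with unstranded counts, in edgeR with the replicate block, where it did pass, and without any 1 library other than CD replicate 1. The summed level of the 13 matched markers was 234663, 164234 and 156492 normalized counts in SD replicates 1 to 3, against 232955, 245545 and 190361 in CD replicates 1 to 3. SD replicates 2 and 3 and CD replicate 3, the libraries with low *Lsp2*, were the lowest in this sum as well. Most of the sum was *apolpp*, with 185687, 134639 and 125870 in SD replicates 1 to 3, against 184888, 197191 and 157902 in CD replicates 1 to 3. *AkhR*, *CtsL1*, *NLaz* and *mdy*, all named after their values were seen, and *Fst* had r below 0 with *Lsp2*. The other matched markers had r above 0. The part of fat body content in the *Lsp2* values was not tested.

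Yolk protein genes are also active in the ovary, so genes of the eggshell and oocyte were counted in the same libraries. DESeq2 called 0 of 17, 1 had an unadjusted p under 0.05, edgeR called 0 of the 4 that passed its filter, and the median log2 fold change was -1.09, or -0.88 with *Vm34Ca*, which had no read on SD, set at its floor of 3 reads per library. Their sum was 119, 112 and 79.4 normalized counts in SD replicates 1 to 3, against 346, 122 and 81.7 in CD replicates 1 to 3. CD replicate 1 was highest, with the chorion gene *Cp15* alone at 96.1 (a gene called lower on SD without CD replicate 3), while CD replicates 2 and 3, which had the highest yolk protein levels, were close to SD replicates 1 and 3. The spermatheca genes *Send1* and *Send2* had 0 to 5.62 normalized counts per SD library and 0 to 1.56 per CD library. The male dosage compensation RNAs *roX1* and *roX2* with *msl-2* summed to 41749, 46904 and 41001 on SD, against 39904, 39665 and 41701 on CD. Of these 3 genes DESeq2 and edgeR each called 0, and 0 had an unadjusted p under 0.05. The part of ovary tissue or of female flies in the yolk protein values was not tested.

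Of the lists examined, those of the male accessory gland and testis held the largest shares of called genes. All lists were chosen with earlier results of these data known. Over all genes with a q, 14% were called higher on SD. All 19 accessory gland genes tested were called higher on SD, with a median log2 fold change of 6.40, or 6.39 with *Acp26Aa*, which had no read on CD, at its floor. Their sum was at least 2516 normalized counts in each SD library and at most 98.4 in each CD library. Of 17 testis genes tested, 15 were called higher, with a median of 6.64 and sums of 2446, 3823 and 7048 on SD, against 264, 296 and 237 on CD. Most of each CD sum was *fzo*, at 123, 151 and 93.5, and *mia*, at 93.0, 99.8 and 93.5, both named after their values were seen. The log2 fold change was 1.00 for *fzo* and -0.07 for *mia*, which was not called. The male gland sums were highest in SD replicate 3, where *Yp1*, *Yp2* and *Yp3* were lowest. On CD the testis sum was highest in CD replicate 2, where the yolk protein genes were highest too. The accessory gland sum was 98.4, 34.8 and 13.8 in CD replicates 1 to 3. The part of RNA from such tissue in the values of the 6 genes was not tested. Without SD replicate 3 the log2 fold change was -7.75 for *Yp1*, -7.30 for *Yp2* and -3.12 for *Yp3*.

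**Figure D5:**
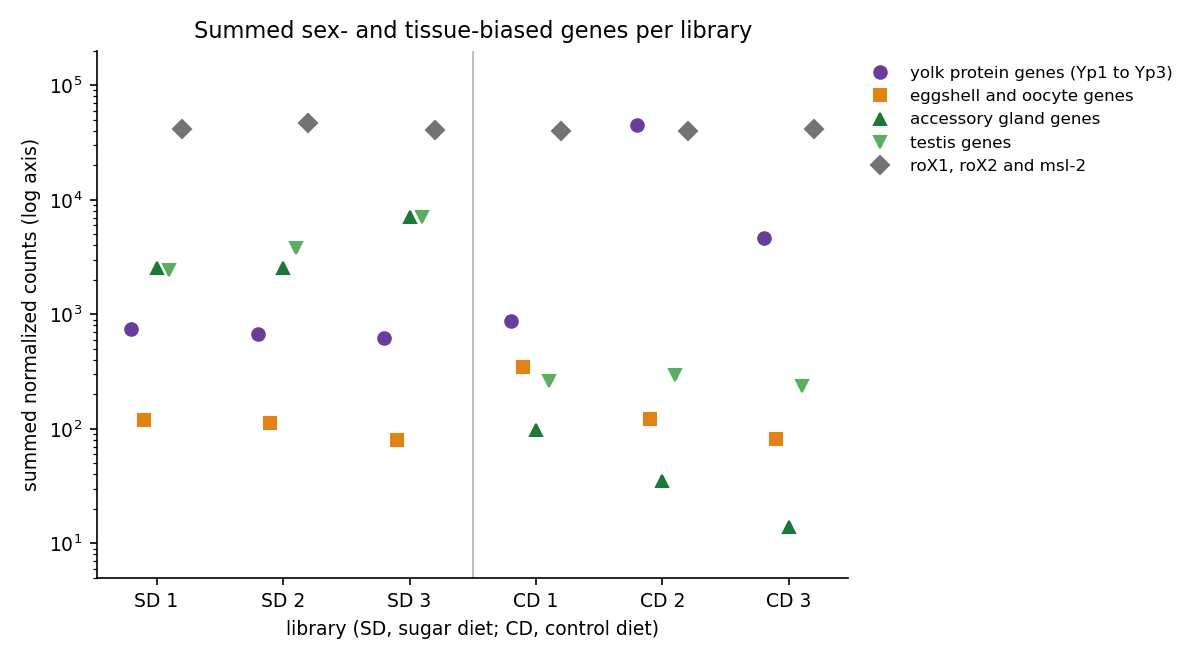
Summed normalized counts (vertical log axis) of the yolk protein genes, eggshell and oocyte genes, accessory gland genes, testis genes, and *roX1*, *roX2* and *msl-2* in each library, with SD replicates 1 to 3 left of the gray line and CD replicates 1 to 3 right of it. Yolk protein genes peak in CD replicate 2 and eggshell genes in CD replicate 1. Both male sums are 2446 or more in each SD library and 296 or less in each CD library.

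The strand of the reads bore on 3 members. *Lsp2* shares 2096 bases, 84.6% of its exon, with *asRNA:CR11538* on the opposite strand, so that counting without strand left 5.66% of its sense reads. That antisense gene had 92, 6 and 2 reads in SD replicates 1 to 3, against 86, 53 and 1 in CD replicates 1 to 3, high in the same 3 libraries as *Lsp2*. Its reads cannot be told apart from wrong-strand reads of *Lsp2*, which were 0.751% of the stranded reads of *Lsp2*. *Yp1* counted without strand kept 23.5% of its sense reads. *fit* shares 67 exonic bases, 12.6% of its exon, with *CG31465* on the opposite strand, and kept 86.1%. For *Yp2*, *Yp3* and *to* the unstranded count was between 100.4% and 100.7% of the sense count. *fit* also shares 32 exonic bases with *asRNA:CR45046* on its own strand, where reads of both are left uncounted. Opposite-strand reads were at most 0.801% of the stranded reads of any member, and *fit* had none.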

How the data were processed

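Each of the 6 libraries had 1 deposited table of raw read counts per gene, with the 4 columns that STAR writes (identifier, unstranded, sense and opposite strand). The authors depleted ribosomal RNA, removed reads with poor quality scores and used STAR to align the others to dm6. Their methods name HTSeq for counting, and the submitters' processing notes list STAR, HTSeq, SAMtools 1.4, DESeq2 1.18.0 and the build BDGP6. Aligner version and annotation release are not given in the sources used here. Reads in several genes or places are left out of gene counts in this layout, which lowers the values of overlapping genes. The first 4 rows of each table name no gene and stayed out of library sizes. Of the reads counted to genes, to none or to several, 10.9% to 12.7% per library fell in no gene and 4.51% to 5.71% were ambiguous.

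Groups and replicate numbers come from the sample titles. Sense counts were used, which held 97.0% to 97.3% of the stranded counts. Libraries of 1 diet differed by more than sampling noise (chi-square per degree of freedom 19.4 to 56.4) and were kept as separate replicates. The diets were compared, as in the study, by the two-sided Wald test of DESeq2 1.42.0 in R 4.3.3 without a block, over genes with at least 1 count, with Benjamini-Hochberg q under 0.1. Alternatives were edgeR 4.0.16, TMM and total-count scaling, a filter of 10 counts in 3 libraries, unstranded counts, q under 0.05, leaving out each library, and the replicate number as a block. Tests were tried on simulated data. Tables and plots were made with Python 3.11.15, pandas 2.3.3 and matplotlib 3.10.9. Symbols and dm6 coordinates are from Ensembl release 115, with a symbol for 17215 identifiers.

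The genes named are the 6 members, up to 3 called genes per list and direction with the largest fold change together with the most abundant gene of the list, and the 3 genes most like each member. Genes named outside this rule are marked. The members and all gene lists were chosen with earlier results of these data known. *FASN1* among the fat body markers and *para* among the neuronal markers were not matched.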

Additional observations from a re-analysis of the deposited data

How the results depend on the processing

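The difference between female-biased and male-biased members, -3.89 between diets, kept its sign and size under other scalings, unstranded counts and other pseudocounts. When 1 library was left out (chosen after seeing the data) it was -5.03 to -2.47, the smallest without CD replicate 2. The counts of all called genes, of genes higher on SD, of listed genes and of members stayed within 1.5 times their values under every alternative run. The count of genes lower on SD did not: it was 77, against 39 with edgeR, 12 with total-count scaling, 31 at q under 0.05, and 12 to 496 when 1 library was left out, with 496 without SD replicate 1 and 12 without SD replicate 3. The cause was not tested. Of the called genes, 96.3% were higher on SD, and 80.4% without SD replicate 1. Total-count scaling raised the median log2 fold change of all genes by 0.14.

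Replicate numbers are shared by the diets. The deviations of same-numbered libraries had correlations of 0.03, -0.04 and -0.10, so no pairing by number was seen across genes. Such correlations cannot exclude handling shared by some of the libraries. With the replicate block the genes lower on SD numbered 121 with DESeq2 and 131 with edgeR (a fit added after seeing the data). The log2 fold change of *Yp3* was then -1.96 in DESeq2, and its call was lost with the block in both DESeq2 and edgeR. The call of *Yp3* was also lost without SD replicate 1, SD replicate 2 or SD replicate 3. All 6 members kept the sign of their log2 fold change except *to*, which was negative in 3 of 14 fits. *fit* and *Lsp2* moved most without SD replicate 1, to -2.74 and -7.31. *Yp1*, *Yp2* and *Yp3* moved most without CD replicate 2, to -5.31, -4.45 and -0.96. Depth limits *fit* and *Yp2* most, with as few as 4 and 5 reads in a library.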
